A study of Mus musculus with 178 samples.

Results

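Blood drawn on Day 17 from mice whose oral tumors responded to anti-PD-1 was compared with blood drawn the same day from mice whose tumors did not. The comparison took every library of that day, 44 of the 178 blood libraries of the series, and split it by the response recorded for each mouse into 14 responders and 30 non-responders. All animals were C57BL/6J mice aged 6 to 8 weeks that carried 4MOSC1 cells, a carcinogen-derived mouse oral squamous carcinoma line, in the tongue or the buccal mucosa. All of them also received anti-PD-1 (clone RMP1-14) by intraperitoneal injection, with the first dose given in the sources as day 4 or as day 7, so both groups share the tumor and the antibody and no untreated or tumor-free blood stands beside them. Response was scored by RECIST, which grades the change in tumor size. Day 4 was the draw before treatment, and Days 9, 17 and 24 fell on treatment. One of the 15 responder mice had no Day 17 library. Each library came from whole blood of 1 mouse, taken behind the eye and put straight into TRIzol, and was made from polyA RNA with a SMARTer kit, which amplifies full-length cDNA.

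Anti-PD-1 releases T cells from an inhibitory receptor, and what leaves the tumor and the marrow can be read in blood. Neutrophils are loaded with granule proteins while they mature in the marrow, so transcripts of lactoferrin, cathelicidin and their like mark young cells of that lineage rather than the segmented neutrophils that fill normal blood. B cells carry CD22, PAX5 and MHC class II, and activated leukocytes switch on AP-1 factors such as JUN within minutes of a stimulus. In bulk blood, fewer cells of a type and less RNA per cell cannot be told apart.

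The Day 17 libraries held 26058944 to 71013189 counts, of which haemoglobin genes took 73.0 to 87.3%, with medians of 83.2% in responders and 81.8% in non-responders. The 22 defining markers checked of B, T and NK cells, monocytes, neutrophils, platelets and red cells were above 0 in all 44 libraries. Of the markers of carcinoma or mucosal cells, Krt14 was listed at 0 in 23 libraries, Krt5 in 22 and Trp63 in 42, and Epcam reached at most 0.26 TPM. All 44 libraries had Xist counts, and the Y-linked genes checked gave 1 count in 1 library and 0 in the others. The paper reports mice of both sexes, which differs from these counts, and the reason was not tested. Library 104_D17_7203 was labelled as a responder although the same mouse was a non-responder in its other labels, so its group was taken from the other draws. Libraries are named as in the labels, by library number, day and mouse number.

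Response went together with the way the mice were numbered. Of the 14 responders, 10 had mouse numbers of 4 digits and 4 had numbers of 3 digits, against 7 and 23 of the 30 non-responders. Nothing in the sources used here says what the numbering stands for. With response held constant, 745 of the 12520 genes tested differed between 4-digit and 3-digit mice by 1.5-fold or more with an adjusted p no higher than 0.05, 624 of them higher in 4-digit mice, and 521 differed among the non-responders alone. Values over all 44 mice are therefore followed, for the main genes and lists, by values within the 17 mice of 4 digits and the 27 mice of 3 digits. Where no such value follows, the result is given over all mice only.

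Across all 44 mice, 33 of 12520 genes (0.264%) passed the adjusted p and the 1.5-fold limit in edgeR's quasi-likelihood test, 28 (0.224%) higher and 5 (0.0399%) lower in responders. At the adjusted p alone 249 genes passed (1.99%), of which 100 were higher (0.799%) and 149 lower (1.19%). In each of the 33 genes the range of the responders overlapped that of the non-responders. Of the 33, 23 were annotated as protein coding, and the other 10 as pseudogenes, noncoding genes or unclassified models. With the digits of the mouse number as a covariate no gene passed (smallest adjusted p = 0.0881), although 1280 genes had an unadjusted p under 0.05. Within the 4-digit mice alone no gene passed either (653 genes with an unadjusted p under 0.05), and within the 3-digit mice alone 1 gene did, Wdr53 (1145 genes with an unadjusted p under 0.05). The count also rested on single mice: it ran from 1 gene without responder 99_D17_7229 to 114 genes without responder 103_D17_327. Leaving out any of the responders 96_D17_7226, 97_D17_7227, 98_D17_7228 or 99_D17_7229 gave 1 to 9 genes, and leaving out any of the 4 responders of 3 digits gave 82 to 114.

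The neutrophil granule genes Ltf, Camp and Ngp rose together. All of them lie on chromosome 9 of mm10, Camp at 109847379-109849617, Ngp at 110419747-110423012 and Ltf at 111019271-111042767 in the annotation used. Lactoferrin (Ltf), an iron-binding protein of the specific granules, had 0.463 CPM in the lowest responder, a median of 3.30 and 7.72 in the highest, against 0.160, 0.857 and 6.12 in non-responders, where CPM is the count scaled to library size with TMM factors. Its highest value was in responder 97_D17_7227 and its lowest in non-responder 132_D17_324, and 12 of 14 responders lay above the non-responder median. The log2 fold change was 1.42 (SE 0.31, adjusted p = 0.020, edgeR). Cathelicidin (Camp), an antimicrobial peptide precursor, ranged from 0.0934 to 0.813 CPM in responders (median 0.283) and from 0.0181 to 0.433 in non-responders (median 0.113). Of the 14 responders 13 lay above the non-responder median for Camp and 6 above the highest non-responder, but the gene was scarce, with a median of 16 raw counts in responders and 5 in non-responders. Its log2 fold change was also 1.42 (SE 0.32, adjusted p = 0.020). Ngp, the neutrophilic granule protein, had 0.606, 2.17 and 5.39 CPM in the lowest, median and highest responder against 0.402, 1.03 and 3.77 in non-responders, a log2 fold change of 0.97 (SE 0.23, adjusted p = 0.028).

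Within the number series these granule genes behaved unequally. Camp had log2 fold changes of 1.80 in 4-digit mice and 1.05 in 3-digit mice, and 1.43 with the digits as a covariate (unadjusted p = 0.00036), and it did not pass the adjusted p in these fits. For Ngp the values were 1.14, 0.56 and 0.88. Ltf had 0.69, 0.45 and 0.61, less than its value over all mice. Its median was 3.64 CPM in 4-digit responders and 2.21 in 4-digit non-responders, against 1.01 and 0.762 in the 3-digit mice. The wider list of granule genes did not move as one. Of the 16 genes listed, 5 did not pass the filter on low counts (Mpo, Elane, Prtn3, Ctsg and Fcnb, the proteins of the earliest granules and a ficolin), 3 of the 11 tested rose (27.3%, against 0.799% of all genes tested), and the median log2 fold change was 0.10, beside 0.01 over all genes tested. Chil3 (-0.34) and Lcn2 (0.19), a chitinase-like protein and the siderophore-binding lipocalin, did not pass. None of the 24 tested genes of mature neutrophils and alarmins passed (median 0.17), and that median was -0.01 with the digits as a covariate.

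**Figure D1:**
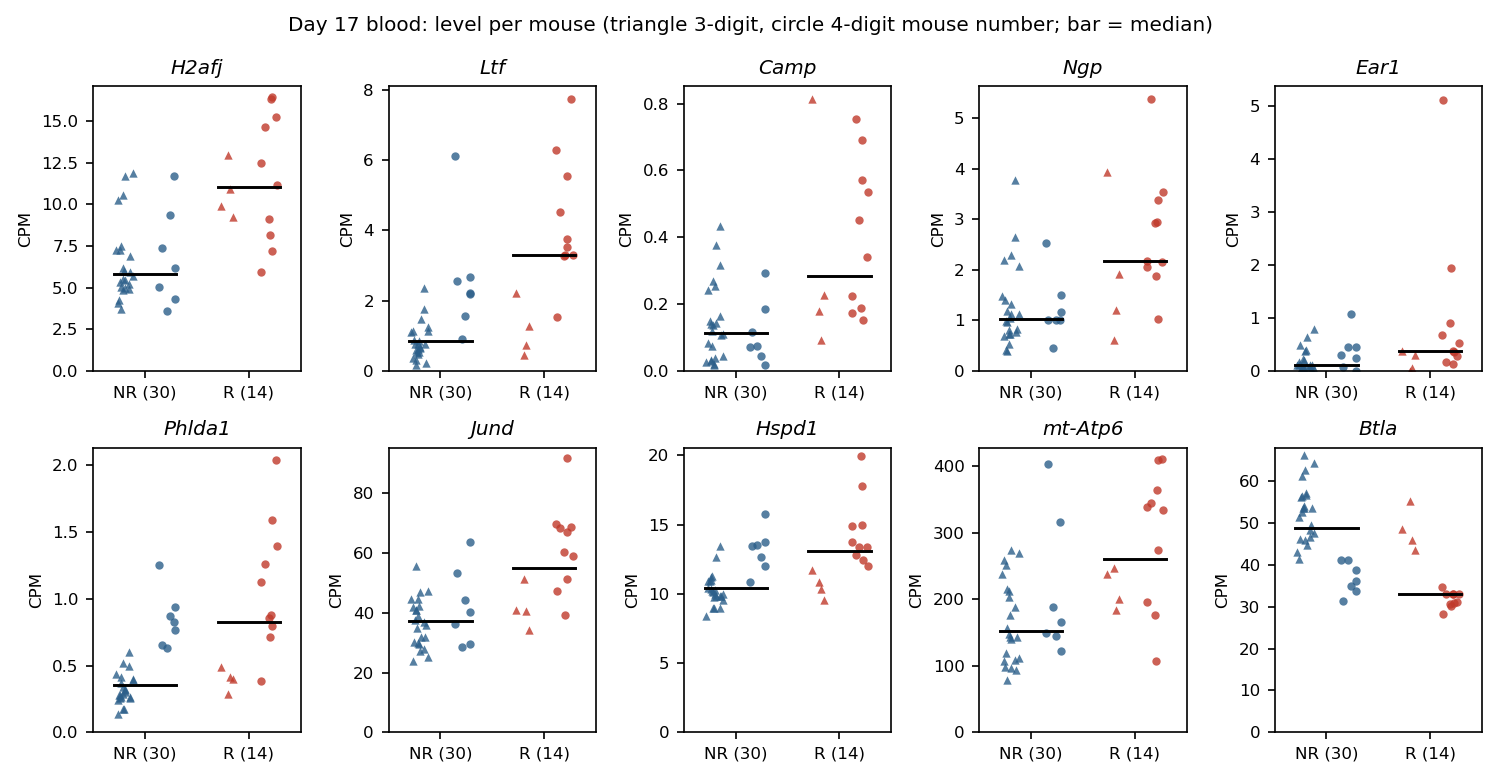
CPM of 10 named genes in each of the 44 Day 17 mice, on linear axes from 0, with responders (R, 14) beside non-responders (NR, 30), triangles for mouse numbers of 3 digits, circles for those of 4, and bars at the medians. The groups overlap in every gene, and the 4-digit mice of both groups sit together for Ltf, Phlda1 and Btla.

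The promoters of the 3 granule genes are shown because all 3 rose over all mice, although Ltf differed from Camp and Ngp within the number series. C/EBP proteins are the factors best known for driving granule genes. Each run is 300 bases of the RefSeq start region on GRCm38.p6, read in the direction of the gene from 250 bases before its start, with matches to the C/EBP-type letters TTGCNNAA on either strand in capitals. The Ltf region lies at chr9:111019042-111019341 on the plus strand, the Camp region at chr9:109849407-109849706 on the minus strand and the Ngp region at chr9:110419558-110419857 on the plus strand.
Ltf: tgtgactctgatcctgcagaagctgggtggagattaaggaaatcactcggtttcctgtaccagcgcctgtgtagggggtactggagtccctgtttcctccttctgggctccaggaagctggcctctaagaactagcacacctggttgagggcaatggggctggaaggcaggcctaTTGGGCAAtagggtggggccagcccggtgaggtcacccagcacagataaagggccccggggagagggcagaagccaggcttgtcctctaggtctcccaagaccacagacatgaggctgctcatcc
Camp: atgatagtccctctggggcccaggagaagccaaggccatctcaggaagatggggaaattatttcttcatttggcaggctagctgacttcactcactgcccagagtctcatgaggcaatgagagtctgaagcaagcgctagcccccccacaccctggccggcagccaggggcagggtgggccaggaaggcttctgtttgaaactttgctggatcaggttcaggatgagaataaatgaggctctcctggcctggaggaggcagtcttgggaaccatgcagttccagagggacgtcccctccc
Ngp: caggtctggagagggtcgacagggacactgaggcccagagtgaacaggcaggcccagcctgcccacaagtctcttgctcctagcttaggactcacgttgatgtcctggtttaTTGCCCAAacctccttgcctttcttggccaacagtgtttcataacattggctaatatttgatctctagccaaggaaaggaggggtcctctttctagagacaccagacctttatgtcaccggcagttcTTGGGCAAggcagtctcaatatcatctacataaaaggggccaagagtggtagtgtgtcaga
Ngp held 2 matches, beginning 138 and 11 bases before the start, Ltf held 1 at 75 bases before it, and these letters were not in the Camp window. The same letters occurred in 10.8% of 32851 RefSeq promoters of this length, and a match is a description of the sequence only. In the Ltf window 1 CCAAT match, on the other strand, overlapped the C/EBP-type match.

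The gene with the smallest p was H2afj, which encodes a variant of histone H2A (chromosome 6, 136808244-136810074, plus strand). Responders ran from 5.93 to 16.4 CPM with a median of 11.0, and non-responders from 3.61 to 11.8 with a median of 5.80. All 14 responders lay above the non-responder median and 6 above the highest non-responder, with responders 96_D17_7226, 98_D17_7228, 97_D17_7227 and 99_D17_7229 highest. The log2 fold change was 0.79 (SE 0.15, adjusted p = 0.0081). It was of like size in 4-digit mice (0.77) and in 3-digit mice (0.72), and 0.75 with the digits as a covariate (unadjusted p = 5.3e-05). On the other list of histone genes 0 of 10 tested members passed.

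Other named genes that rose at 1.5-fold or more came from unrelated functions. Kcnj8, a pore subunit of ATP-sensitive potassium channels, had a log2 fold change of 0.69 (SE 0.17), Pet100, an assembly factor of cytochrome c oxidase, 0.63 (SE 0.15), and Grm6, a glutamate receptor best known from the retina, 0.84 (SE 0.22). Phlda1, a pleckstrin homology-like protein, rose by 0.97 (SE 0.24, adjusted p = 0.031), with medians of 0.826 and 0.356 CPM in responders and non-responders. Within the number series Pet100 stayed at 0.49 and 0.67 in 4-digit and 3-digit mice, while Phlda1 was 0.33 and 0.27 and Kcnj8 0.75 and 0.29. Ear1, a ribonuclease of eosinophils, rose by 1.86 (SE 0.46, adjusted p = 0.030) but reached 5.12 CPM in responder 95_D17_7221 and at most 1.93 in any other mouse. Without that responder it was 1.09 and did not pass (adjusted p = 0.16), and within the number series it was 1.56 in 4-digit and 0.07 in 3-digit mice. Ear1 has near-identical relatives, and reads may be divided among them. Apol11a, of the apolipoprotein L family, rose by 0.95 (SE 0.25) over all mice and was 0.61 in 4-digit and -0.25 in 3-digit mice, the opposite direction.

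Among the other called genes, mt-Atp6 (0.62), Atp5k (0.72), Rpl38 (0.63), Gp1bb (0.68), Tnf (0.77), Zbtb32 (0.60) and the epithelial protease Prss8 (1.41) were protein coding. Of these, Atp5k, Zbtb32 and Prss8 were outside the naming rule and were chosen after their values were seen. Within the 4-digit and the 3-digit mice Tnf was at 0.22 and 0.50, mt-Atp6 at 0.47 and 0.38 and Gp1bb at 0.56 and 0.36. The largest log2 fold change, 2.64, belonged to Gm49369, a gene model that overlaps Ctsd and Ifitm10 on the same strand, so its counts cannot be set apart from theirs with certainty. Rec114 (0.70) likewise overlaps Nptn on the opposite strand and Gm20620 on the same strand, and whether the counting used strand is not given in the sources used here. Of the other called genes named in the text, Gp1bb overlaps Sept5 and mt-Atp6 overlaps mt-Atp8 and mt-Co3 on the same strand. Also on the same strand, Ear1 overlaps Ear-ps9 and Ear-ps12, and Cacna1d overlaps Gm18072. H2afj, Pet100, Phlda1, Grm6, Prss8, Cacna1d and Tube1 overlap genes on the opposite strand, so reads of those genes may be counted in them as well.

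The 4 named genes that fell by 1.5-fold or more were all scarce. Cacna1d, a pore subunit of L-type calcium channels, had 0.346, 0.494 and 1.25 CPM in the lowest, median and highest responder against 0.268, 1.09 and 1.58 in non-responders, a log2 fold change of -0.75 (SE 0.17, adjusted p = 0.020). Knl1, a scaffold of the kinetochore, fell by 0.59 on the log2 scale, Tube1, the epsilon-tubulin of centrioles, by 0.72, and Slco5a1, a solute carrier, by 0.66. For each of Knl1, Tube1 and Slco5a1, 2 of 14 responders lay above the non-responder median. Within the number series the 4 genes stayed negative, with Cacna1d at -0.48 and -0.28 and Tube1 at -1.0 and -0.26 in 4-digit and 3-digit mice.

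**Figure D2:**
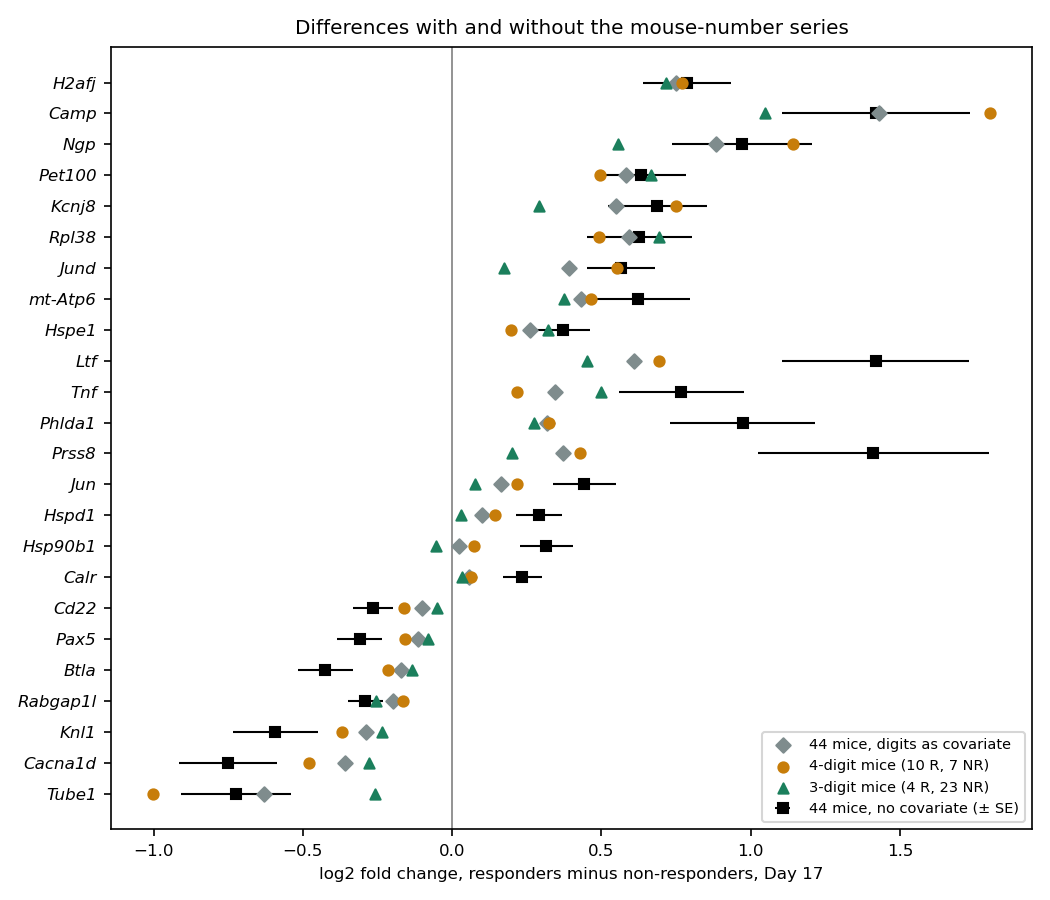
Log2 fold change, responder minus non-responder, of 24 named genes over all 44 Day 17 mice, with the digits of the mouse number as a covariate, and within the 4-digit and the 3-digit mice alone. H2afj lies between 0.72 and 0.79 in the 4 settings and Camp between 1.05 and 1.80, whereas Ltf, Phlda1, Prss8, Hspd1 and Hsp90b1 lie nearer 0 in the other 3 settings than over all mice; none of these genes passes the adjusted p in those 3.

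Of the AP-1 and immediate early genes, Jund, Jun and Ier5 rose by less than 1.5-fold and Cd69 fell. Jund, an AP-1 factor, ran from 34.2 to 91.8 CPM in responders (median 55.1) and from 24.0 to 63.7 in non-responders (median 37.4), a log2 fold change of 0.57 (SE 0.11, adjusted p = 0.011) with 13 of 14 responders above the non-responder median. Jun had 0.44, the immediate early gene Ier5 0.30, and Cd69, an early activation receptor of lymphocytes, -0.42. These were the members that passed of 24 tested AP-1 and immediate early genes, 3 higher (12.5%, against 0.799% of all genes tested) and 1 lower (4.17%, against 1.19%). The list's median was 0.17, and 0.05 with the digits as a covariate, where no member passed. Jund was 0.55 in 4-digit and 0.17 in 3-digit mice, and Jun 0.22 and 0.08. Of 19 tested NF-kB and inflammatory cytokine genes 1 rose, Tnf (5.26%, against 0.799% of all genes tested). Ddit3, the stress factor CHOP, rose by 0.28 (SE 0.06) as the only member past the test of 19 genes of the ATF4 and serine folate list (5.26%), and Zfpm1, a cofactor of GATA1 in red cell and platelet development, by 0.36 (SE 0.07) as the only one of 14 of the erythroid progenitor list (7.14%), both against the same 0.799%. Each of these shares is that of 1 gene.

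All 17 tested heat shock and chaperone genes had positive log2 fold changes (median 0.35), and 3 of them rose (17.6%, against 0.799% of all genes tested). Hspe1 and Hspd1 encode the small and the large subunit of the mitochondrial chaperonin and share 1 promoter, and Hsp90b1 encodes the HSP90 of the endoplasmic reticulum. Hspe1 had 3.46, 5.19 and 7.73 CPM in the lowest, median and highest responder against 3.16, 4.10 and 6.04 in non-responders, a log2 fold change of 0.37 (SE 0.09, adjusted p = 0.030). Hspd1 rose by 0.29 (SE 0.08) and Hsp90b1 by 0.32 (SE 0.09). The list did not keep this pattern within the number series: its median was 0.07 with 15 of 17 genes positive in 4-digit mice, and -0.07 with 3 of 17 positive in 3-digit mice. Hspe1 was 0.20 and 0.32 in 4-digit and 3-digit mice, Hspd1 0.14 and 0.03, and Hsp90b1 0.07 and -0.05. The related Calr (0.24) and Pdia3 (0.21), which fold proteins in the endoplasmic reticulum, also passed over all mice.

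The shared start region of Hspe1 and Hspd1 is shown for the pair that rose together. It lies at chr1:55087898-55088197 on GRCm38.p6, read on the plus strand toward Hspe1, and the capitals mark the match to the heat shock element letters GAANNTTC.
Hspe1: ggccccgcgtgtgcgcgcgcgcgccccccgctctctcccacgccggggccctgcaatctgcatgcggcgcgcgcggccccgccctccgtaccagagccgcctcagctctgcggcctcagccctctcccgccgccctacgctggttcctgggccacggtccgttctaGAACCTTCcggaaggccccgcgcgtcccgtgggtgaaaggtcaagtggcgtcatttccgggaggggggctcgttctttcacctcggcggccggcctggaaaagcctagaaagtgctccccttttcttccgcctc
The match begins 84 bases before the Hspe1 start, and the other phase of the element, TTCNNGAA, matched at 89 and 79 bases before it, overlapping the first. GAANNTTC occurred in 7.86% and TTCNNGAA in 8.52% of the 32851 promoters.

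The lists of respiratory chain and ribosomal proteins had small positive medians, also within both number series. Of 76 tested genes of the respiratory chain and ATP synthase, 7 rose (9.21%, against 0.799% of all genes tested), none fell, and 66 had positive values (median 0.19, against 0.01). They were the nuclear genes Cox7b (log2 fold change 0.46), Cox5a (0.42), Cox7a2 (0.40), Ndufa4 (0.38), Atp5k (0.72), Atp5mpl (0.47) and Atp5j2 (0.27). The list's median was 0.17 in 4-digit mice, with 71 of 76 positive, and 0.20 in 3-digit mice, with 70 positive. Of the 13 genes encoded in mitochondria, listed apart, mt-Co2 (0.50) and mt-Atp6 (0.62) rose (15.4%, against 0.799% of all genes tested), and 4 of the 13 were negative (median 0.10). Among 85 tested cytosolic ribosomal protein genes 1 rose (1.18%, near the 0.799% of all genes tested), Rpl38, at 0.49 and 0.69 within the number series. That list had a median of 0.12, with 0.15 and 0.20 within the 4-digit and the 3-digit mice. On the deposited TPM values, as log2(TPM + 1) in limma, both medians were negative, -0.03 for the respiratory chain and -0.11 for the ribosomal proteins, beside -0.04 over all genes in that fit, and no member of either list passed. Gene length moved with these lists, as the values on length below show.

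B cell genes were lower by small amounts. Of the 126 tested genes of the study's B cell signature 16 fell (12.7%, against 1.19% of all genes tested), none rose, and 97 had negative values (median -0.11). The study drew this list from single-cell data of the same tumor model at an early draw on treatment. On a textbook list of B cell identity 4 of 25 genes fell (16.0%) and 22 were negative (median -0.13). Pax5, which commits cells to the B lineage, ran from 37.6 to 71.4 CPM in responders (median 48.3) and from 45.7 to 80.9 in non-responders (median 65.9), a log2 fold change of -0.31 (SE 0.08, adjusted p = 0.028). Cd22, an inhibitory receptor of B cells, fell by 0.27 (SE 0.07), Bach2, a repressor that holds back plasma cell fate, by 0.23, and Ralgps2, a Ral exchange factor, by 0.24. Btla, an inhibitory receptor of B and T cells, fell by 0.42 (SE 0.09, adjusted p = 0.020) and was the only one of 15 checkpoint genes to pass (6.67%, against 1.19% of all genes tested). Ciita, the master regulator of MHC class II, fell by 0.27 as the only one of 12 genes of class II presentation (8.33%, against the same 1.19%), of which 10 were negative (median -0.19).

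These genes also differed between the number series. Btla spanned 28.3 to 34.6 CPM in 4-digit responders and 31.3 to 41.1 in 4-digit non-responders, but 43.5 to 55.2 and 41.4 to 66.1 in the 3-digit mice. Every 4-digit mouse, responder or non-responder, was thus below every 3-digit mouse of either response. Its log2 fold change was -0.22 and -0.14 within the 4-digit and the 3-digit mice, Pax5 was at -0.16 and -0.08 and Cd22 at -0.16 and -0.05. The medians of the B cell signature were -0.04 and -0.01 there. Among other lower genes of that signature, Snx29, a sorting nexin, was at -0.24 over all mice and -0.22 in each series. Rabgap1l, which acts on Rab GTPases, was at -0.29, then -0.16 and -0.26. Fchsd2, an actin regulator of endocytosis, was at -0.32, then -0.21 and -0.09.

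The study follows effector memory T cells and B cells as correlates of response, and NK cell genes were listed here beside those of T cells. None of 22 T cell receptor and CD3 genes, 24 effector and cytotoxicity genes, 18 NK receptors, 35 interferon-stimulated genes or 37 proliferation genes passed, where 1.99% of all genes tested did, a share of under 1 gene in each list, and their medians lay between 0.00 and 0.16. Of 154 genes of the study's effector memory T cell signature 3 rose (1.95%, against 0.799% of all genes tested) and 120 were positive (median 0.07), a list drawn from the same single-cell data. The 3 were S100a13, a small calcium-binding protein, at 0.56 (SE 0.12), and 0.43 and 0.27 within the 4-digit and the 3-digit mice, Arl4c, a small GTPase, at 0.23, and Ccnd2, a G1 cyclin, at 0.29. Ccnd2 was 0.12 in 4-digit and -0.04 in 3-digit mice. Of 10 single genes the study names, Cd22 alone passed. Tbx21, the factor T-bet, had a log2 fold change of 0.37 (adjusted p = 0.073), the homing receptor Cxcr6 0.26 (adjusted p = 0.18) and the granule protein Nkg7 0.15 (adjusted p = 0.30).

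Platelet, red cell and epithelial genes did not have 1 direction across the series of mice. All 25 tested platelet genes were positive over all mice (median 0.25, beside 0.01 over all genes), with Gp1bb alone passing (4%, against 0.799% of all genes tested), yet their median was 0.06 in 4-digit and -0.28 in 3-digit mice. For 53 tested genes of reticulocyte maturation, none of which passed, the medians were 0.25, then 0.23 and -0.30. Of 20 mucosal epithelium genes 6 passed the filter and none the test (median 0.82). The summed CPM of these 6 genes ran from 5.39 to 15.2 in responders and from 5.10 to 11.5 in non-responders, so the groups overlapped. Sfn, which had log2 fold change 0.01, made up most of that sum, with medians of 4.81 and 4.66 CPM in responders and non-responders, and the other 5 genes had log2 fold changes from 0.46 to 1.35. The one with the smallest p, Krt13, a keratin of wet mucosa, had a log2 fold change of 1.35 (SE 0.43, adjusted p = 0.070), with medians of 1.30 and 0.389 CPM. That list's median was 0.44 in 4-digit and -0.42 in 3-digit mice. Prss8, named above, was at 0.43 and 0.20 there, and whether cells of the mouth or tumor contributed to these values was not tested.

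Gene length went with the direction of the differences. The genes tested were split by summed exon length into 5 bins of equal size. In the shortest bin, up to 2300 bases, 49 genes rose and 3 fell at the adjusted p alone, and in the longest, from 7377 bases, 3 rose and 87 fell. The median log2 fold change descended through the bins from 0.10 to 0.03, 0.00, -0.01 and -0.04. The genes that rose had a median exon length of 2335.5 bases, those that fell 8542 bases, and all genes tested 4285.5 bases. The same descent was present within the 4-digit mice, from 0.09 to -0.06, and within the 3-digit mice, from 0.09 to -0.07. Of the B cell signature, from the shortest to the longest bin, 0 of 25, 1 of 27, 5 of 19, 1 of 20 and 9 of 35 members fell, so the middle bin held as large a share as the longest. In the longest bin the median of these 35 members was -0.18, beside -0.04 over all genes of that bin, of which 3.48% fell.

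**Figure D3:**
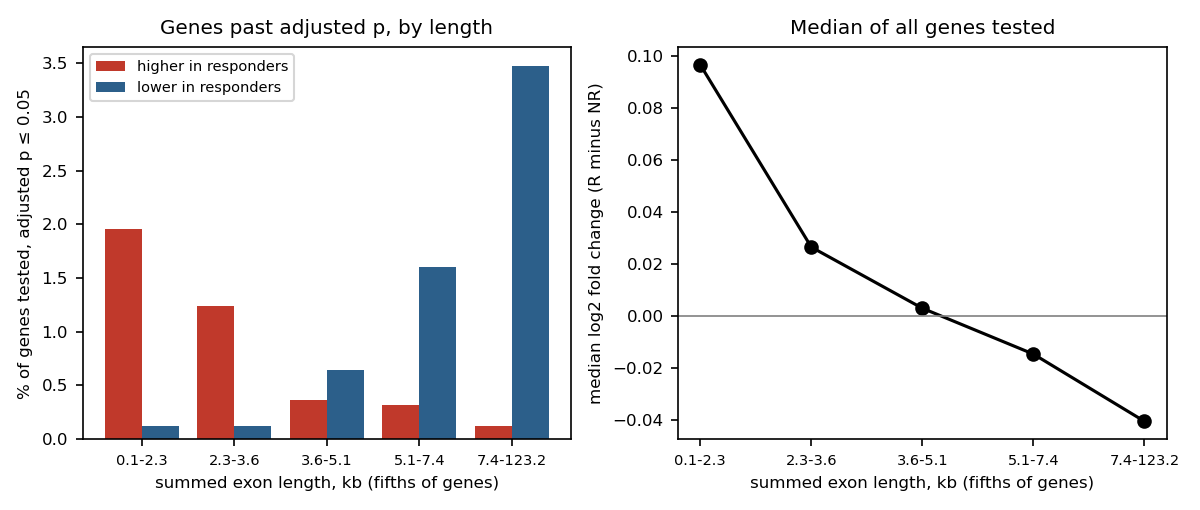
Percent of genes higher and lower in responders at the adjusted p alone in each of 5 bins of summed exon length (left, bars), and the median log2 fold change of the bin (right, points joined by a line); lengths are in kilobases. From the shortest to the longest bin the share of higher genes drops from 1.96% to 0.120% and that of lower genes climbs from 0.120% to 3.48%.

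A length index for each library was taken as the mean log2 CPM of the bin of shortest genes minus that of the bin of longest genes. It ran from -1.93 to -1.48 in responders (median -1.60, mean -1.69, SD 0.17, n = 14) and from -1.99 to -1.38 in non-responders (median -1.88, mean -1.82, SD 0.16, n = 30). The means differed by 0.14 (two-sided permutation test over mice, without regard to the digits, p = 0.0161). The index restates the length pattern of these same libraries, so its test is not separate support for that pattern. Within the 4-digit mice the difference was 0.14 (exact permutation p = 0.121) and within the 3-digit mice 0.19 (exact permutation p = 0.0506). With the index as a covariate no gene passed (smallest adjusted p = 0.0670, 2195 genes with an unadjusted p under 0.05). The median of the respiratory chain list was then 0.00 and that of the ribosomal proteins -0.06. The shortest bin, which enters the index, held 54 of the 76 respiratory chain genes and 55 of the 85 ribosomal ones. The chaperones stayed at 0.38 and the B cell signature at -0.14. H2afj was at 0.55, Camp at 1.24 and Ltf at 1.41 in that fit, and Rpl38 at 0.17. RNA quality and library preparation are not given per mouse in the sources used here, and their part in the length pattern was not tested.

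**Figure D4:**
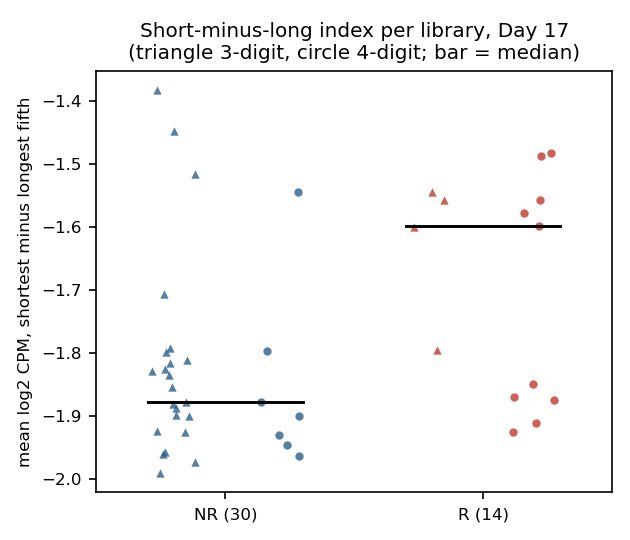
Length index (mean log2 CPM of the bin of shortest genes minus that of longest genes) of each Day 17 mouse, by response and by digits of the mouse number, with triangles for 3-digit and circles for 4-digit numbers and bars at the medians. Responders reach from -1.93 to -1.48 and non-responders from -1.99 to -1.38, with the responder median higher.

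How far the Day 17 differences were those of that day was tested by comparing them with the responder minus non-responder differences on Days 4, 9 and 24, in 1 edgeR fit of all 178 libraries over 13688 genes. The Day 17 libraries are shared by the 3 tests, and libraries of 1 mouse on several days were treated as independent. Against Day 4, 48 genes departed (0.351%), all with the more positive difference on Day 17; against Day 9, 8 genes (0.0584%), all more positive. Against Day 24, 123 genes departed (0.899%), 47 with a more positive (0.343%) and 76 with a more negative difference (0.555%). With the digits of the mouse number by day as covariates these counts were 0, 2 and 2. The 2 genes against Day 24 had the more positive difference on Day 17. Without library 166_D24_7224, which entered the shared fit, 7 of 55 genes against Day 4 and 7 of 18 against Day 9 had the more negative difference on Day 17.

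The log2 fold change of Ltf was -0.95 on Day 4, -1.13 on Day 9, 1.42 on Day 17 and 0.83 on Day 24, with a difference of 2.55 between Days 17 and 9 (adjusted p = 0.033). The values on Days 4 and 9 did not pass by themselves (adjusted p = 0.20 and 0.069), nor did the difference of 2.36 from Day 4 (adjusted p = 0.085). Camp and Ngp were positive on all 4 days, with 0.64, 0.31, 1.44 and 0.94 for Camp, and neither departed from another day. Phlda1 went from -0.99 on Day 4 to 0.97 on Day 17 (difference 1.97, adjusted p = 0.012) and Prss8 from -2.69 to 1.41 (difference 4.10, adjusted p = 0.018). The Day 17 value of Prss8 did not pass by itself in this edgeR fit (adjusted p = 0.10). Hspd1 was near 0 on Day 4 (-0.06), Day 9 (-0.12) and Day 24 (0.06) and at 0.29 on Day 17, a departure of 0.35 from Day 4 (adjusted p = 0.032) and of 0.41 from Day 9 (adjusted p = 0.018). Hsp90b1 departed from Day 9 by 0.43 (adjusted p = 0.026). H2afj was at 0.70, 0.47 and 0.79 on Days 4, 9 and 17 and at -0.13 on Day 24, a departure of 0.92 from that day (adjusted p = 0.017).

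The B cell and class II genes departed from Day 24 only, of the 3 days tested. These calls were lost with the digits by day as covariates, where no gene passed with a more negative difference against Day 24. Of the 126 genes of the B cell signature 12 (9.52%, against 0.555% of all 13688 genes) had a more negative difference on Day 17 than on Day 24, and so did 5 of 12 class II genes (41.7%). Cd74 and H2-DMa are counted in both lists. For Cd74 (0.31) and Pml (0.20) the Day 24 value passed by itself in this edgeR fit (adjusted p = 0.038 and 0.031). Their Day 17 values did not (adjusted p = 0.42 and 0.21). Pax5 was at -0.31 on Day 17 and 0.08 on Day 24 (difference -0.39, adjusted p = 0.038) and Snx29 at -0.24 and 0.18 (difference -0.42, adjusted p = 0.0020). The class II genes were Cd74, the invariant chain, H2-Aa, H2-Eb1, H2-DMa and H2-DMb2, with differences from -0.45 to -0.34, none of which had passed the test on Day 17 itself. The length descent was also absent on Day 24, where the shortest and the longest bin had medians of 0.00 and -0.01, while on Day 4 they had 0.10 and -0.08.

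**Figure D5:**
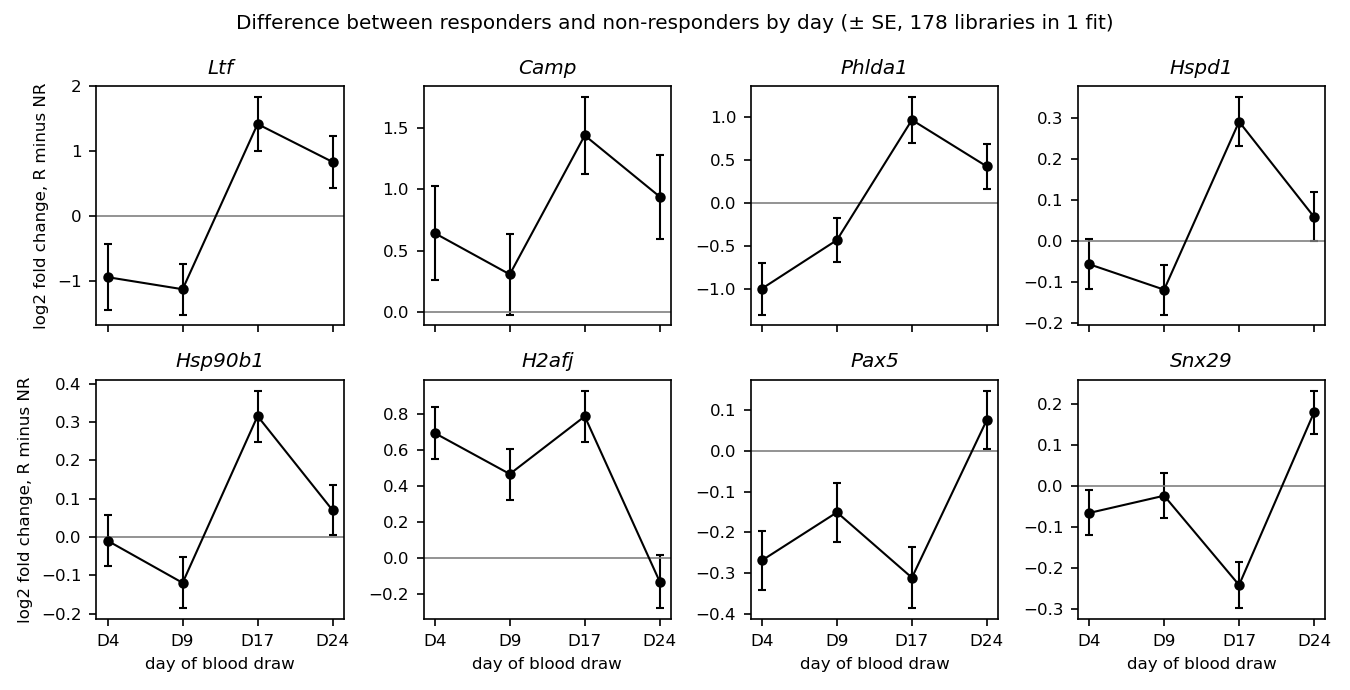
Log2 fold change, responder minus non-responder, of 8 genes on Days 4, 9, 17 and 24 from 1 fit of all 178 libraries, with standard errors as bars; the x axis is the day of blood draw. Ltf and Phlda1 pass from below 0 on Day 4 to above 0 on Day 17, Camp is above 0 on all 4 days, and H2afj and Pax5 lie near 0 on Day 24.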

How the data were processed

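Whole blood of 45 mice was sequenced by polyA RNA-seq at up to 4 draws each, 178 libraries in all, and the 44 libraries of Day 17 were compared here. Per the submitters' processing notes, the authors aligned reads with STAR to mm10. The version, the counting tool and the annotation are not given in the sources used here. The authors deposited a table of estimated counts for 55450 genes, in which 3.26% of the Day 17 values were not whole, and a table of TPM values per gene (scaled by gene length and by library). All 55450 gene IDs matched GENCODE M21, which gave coordinates, biotypes and exon lengths, and all 178 columns were matched to samples by their library names. No pair of Day 17 libraries held identical values.

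Estimated counts were rounded to whole numbers, filtered with filterByExpr (12520 genes kept), scaled by TMM with all haemoglobin genes included, and tested with glmQLFit and glmQLFTest in edgeR 4.0.16 (R 4.3.3), with no covariate and Benjamini-Hochberg adjustment over all genes tested. A gene was called where its adjusted p was no higher than 0.05 and it differed by 1.5-fold or more, and counted also at the adjusted p alone. CPM values are counts scaled to the TMM-adjusted library size, and depth limited scarce genes most, since libraries held 4535309 to 14356394 counts outside haemoglobin. The departure of Day 17 from each other day was tested as an interaction between day and response in a fit of the 178 libraries. Libraries of 1 mouse on several days share its number in the labels, and mouse as a replicate block was an alternative. The p-values of the Day 17 comparison measure the spread between mice, each of which gave 1 library that day. In the fit of the 178 libraries, draws of 1 mouse were treated as independent, and the p-values given for departures ignore that pairing. The index test permuted group labels of mice, with 100000 permutations for all 44 mice and exactly within each number series.

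On simulated counts for the same 12520 genes and libraries, the test found 61 of 67 genes changed by 1.5-fold, 66 of 67 changed by 2-fold and 64 of 66 changed by 3-fold, with 10 false calls. Found genes and false calls were counted at the adjusted p alone. Each gene was drawn by itself, with no number series and no length pattern. The simulation therefore checks the code, and does not give the power or the false calls of the real comparison. Named genes were the called genes with the smallest p, up to 15 in each direction, with gene models and pseudogenes given as counts; up to 5 genes in each direction past the adjusted p that belong to a list; up to 4 members of each list described; and the genes the study names. Genes outside this rule were chosen after their values were seen. The members and the gene lists were chosen with earlier results of these data known, and lists are described by counts and medians with no test of the list. Promoters and motif matches came from the RefSeq table of GRCm38.p6 (5 genes looked up, all found). Alternatives were DESeq2 1.42.0, limma 3.58.1 on log2(TPM + 0.1) and log2(TPM + 1), other size factors and filters, haemoglobin, the doubtful label, the digits of the mouse number, and each mouse left out. Sex as a covariate was not run, as all 44 libraries had Xist counts and none had more than 1 Y-linked count, although the paper reports mice of both sexes.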

Additional observations from a re-analysis of the deposited data

Results flagged for a closer look

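The following responder minus non-responder differences on Day 17 departed from the difference on another day by the interaction test of edgeR, at an adjusted p of at most 0.05 over 13688 genes.

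Against Day 4, 48 genes departed. They included Ccnd2 by 0.40, Phlda1 by 1.97, Hspd1 by 0.35, Prss8 by 4.10 and the HSP90 cochaperone Chordc1 by 0.45 on the log2 scale. All 48 had the more positive difference on Day 17, and 48 of 55 did without library 166_D24_7224.

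Against Day 9, 8 genes departed, among them Ltf by 2.55, Hspd1 by 0.41 and Hsp90b1 by 0.43.

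Against Day 24, 123 genes departed. H2afj departed by 0.92. The B cell genes Pax5, Bach2, Snx29 and Ighd departed by -0.39, -0.35, -0.42 and -0.40, and the class II genes Cd74, H2-Aa, H2-Eb1, H2-DMa and H2-DMb2 by -0.44, -0.45, -0.41, -0.34 and -0.34. The other members of the study's B cell signature were Mef2c at -0.37, St6gal1 at -0.35, Strbp at -0.33, Foxp1 at -0.28, Myo1e at -0.40, Pml at -0.32 and Wdfy4 at -0.33. With the digits of the mouse number by day as covariates 0, 2 and 2 genes departed from Days 4, 9 and 24. The 2 genes against Day 24 had the more positive difference on Day 17, so none of the more negative departures listed here passed in that fit. None of the departures from Day 4 passed there either. Why these calls were lost was not tested.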

How the results depend on the processing

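The count of 33 called genes on Day 17 was 33 with RLE size factors and 36 with haemoglobin genes removed. It was 71 by DESeq2, 78 with every gene that had a count in any library (25808 genes tested), 14 with at least 10 counts in every library, 1 by limma on either TPM scale (Gm49369), 55 with 104_D17_7203 counted as a responder, 52 without that library, 19 with the haemoglobin share as a covariate, 68 when all 178 libraries were in 1 fit and 249 at the adjusted p alone. It was 0 with the digits of the mouse number as a covariate, 0 in 4-digit mice, 1 in 3-digit mice, and 0 with the length index or with the index and the digits as covariates (344 genes with an unadjusted p under 0.05), both added after seeing the data. The cause was not tested. Leaving out 1 mouse gave 1 to 114 genes. Without responders 99_D17_7229, 97_D17_7227, 98_D17_7228 or 96_D17_7226 it was 1, 2, 5 and 9, and without 13 of the non-responders 17 to 21. Without responders 103_D17_327, 102_D17_322, 101_D17_315 or 100_D17_311 it was 114, 94, 84 and 82, and without non-responders 120_D17_7223, 105_D17_7220, 121_D17_7224, 109_D17_308 or 104_D17_7203 it was 111, 98, 85, 53 and 52. On log2(TPM + 0.1) the median of all genes was -0.12. The share of called genes that were higher was 84.8%, and 100% with at least 10 counts in every library.

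Of 50 named genes past the adjusted p, 49 passed by DESeq2, 48 with RLE factors, 40 with 104_D17_7203 as a responder and 0 with the digits or the index as a covariate, within either number series or by limma. Apol11a (-0.25), Ccnd2 (-0.037) and Hsp90b1 (-0.053) turned direction in the 3-digit mice. No named gene changed direction when 1 mouse was left out, and 490 of these 2200 values no longer passed.

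For the lists, leave-one-out counts were taken only without responder 99_D17_7229 and without responder 103_D17_327. Those removals gave the fewest and the most called genes, so the ranges below do not cover the other mice. The 16 lower genes of the B cell signature were 0 with the digits, 0 with the index and 0 with 1.5-fold required, and 1 to 24 in those leave-one-out fits. The 7 higher genes of the respiratory chain were 0, 0 and 1 under the same settings, and 0 to 18. The 3 chaperones were 0, 0 and 0, 6 without 104_D17_7203, and 0 to 12. The 3 granule genes were 0 with the digits and 0 with the index, and 0 to 3. The 3 AP-1 genes were 0, 0 and 0, and 1 to 4. The medians of the platelet, reticulocyte and chaperone lists turned negative in the 3-digit mice.

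With mouse as a replicate block in a paired fit, 60, 14 and 194 genes departed from Days 4, 9 and 24 in place of 48, 8 and 123, of which 46, 7 and 115 were shared. With 1.5-fold required the counts were 41, 2 and 20, with the digits by day 0, 2 and 2, and without library 166_D24_7224, whose TMM factor was lowest (0.0848), 55, 18 and 138. Without 104_D17_7203 they were 56, 10 and 133.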
